A study of Sus scrofa with 4 samples.

Results

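The porcine array measured many transcripts that its deposited annotation does not tie to a gene symbol, and 83 probe sets of that kind were far lower in the livers of clenbuterol-fed pigs than in those of control pigs. A probe set is a group of short probes that reads 1 transcript. The 83 were chosen from the measured values themselves: no gene symbol, a GCRMA value of at least 5 (log2) on both control arrays, and a mean over the clenbuterol arrays at least 1.5 (log2) below that of the control arrays. They were taken from 15383 probe sets, of which 13172 had no symbol and 8629 of those had both control values past 5. Of 86 probe sets that met these thresholds, 3 were left out because the rule bars descriptions of immunoglobulin, MHC, hemoglobin, solute carrier, collagen and P450 genes. These were a hemoglobin alpha 1 at -1.82, an MHC class I antigen at -1.81 and solute carrier 25 member 30 at -1.74 (log2, clenbuterol minus control).

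The clenbuterol group was 2 Chinese miniature pigs, a male and a female, and the control group was another male and female of the same strain. All 4 pigs had been kept alike up to 8 weeks of age and an average weight of 18 kg. Clenbuterol was mixed into the feed, offered 2 times a day, at 25 mg/kg for the first 4 weeks and at 50 mg/kg for the last 4 of 8 weeks. Control pigs had the same feeding scheme with no drug in the diet, and liver RNA of all pigs was taken at 4 months of age. The labels speak of full sibs of 1 sex in each group while giving each treatment a male and a female, so sibship, sex and replicate number cannot be told apart. Each array holds 1 pig, and 2 pigs per group limit the precision of every value.

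Clenbuterol activates the β2-adrenergic receptor, which raises cyclic AMP and is known in hepatocytes for driving glycogen breakdown and glucose output. The enzymes and regulators that set hepatic lipid storage are among the known targets of that pathway. A probe set without a symbol usually stands for a cluster of expressed sequence tags, short reads of cDNA clones. Where its description names a protein, the link was made only by sequence likeness when the array was designed.

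The arrays were even in level. Median GCRMA values of the 11931 tested probe sets were 7.46 and 7.46 on the clenbuterol arrays, against 7.50 and 7.47 on the control arrays. Tested means a value of at least 4 (log2) on at least 2 of the 4 arrays. Of the 6 hepatocyte markers that were measured, including ALB, TTR and APOA1, 0 passed the limma test, and their median difference was -0.02 (log2). Of 5 markers each, 4 of stellate cells and fibroblasts and 2 of Kupffer cells and macrophages were higher with clenbuterol, and 1 stellate cell marker was lower. The summed stellate level was 12.99 and 12.93 (log2) in clenbuterol livers, against 12.47 and 12.48 in control livers, and the Kupffer sum was 14.14 and 14.05 in clenbuterol livers, against 13.85 and 13.85 in control livers. Endothelium had 1 of 3 markers higher and 1 lower, T and NK cells had 1 of 3 higher, and the cholangiocyte marker GGT1 was lower. Markers were matched by gene symbol, and none of the B cell, neutrophil, erythroid, pancreas or adipocyte lists was matched and measured. Control genes had 10 pairs of a 3′ and a 5′ probe set, with more than 1 pair each for GAPDH and actin. In 7 of these pairs the 3′ minus 5′ gap was lower on both clenbuterol arrays than on both control arrays. In 0 it was higher on both. For a GAPDH pair the gap was 1.03 and 1.28 (log2) in clenbuterol livers, against 1.68 and 1.81 in control livers. What part these marker and RNA length differences have in the values below was not tested. In whole liver, fewer cells of a type and less RNA per cell cannot be told apart.

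Because the rule used the difference between clenbuterol and control, the falls are given here as a description, with no test. The median member was 3.69-fold lower with clenbuterol, at -1.88 (log2), where the median of all tested probe sets was -0.03. Differences ran from -5.56 to -1.52, and 35 members were at least 4-fold and 15 at least 8-fold lower. Mean levels lay between 2.44 and 9.75 (log2, median 4.91) in clenbuterol livers and between 5.29 and 11.31 (median 7.04) in control livers. Both clenbuterol values were below 4 in 25 members, where a fold rests on signals near the bottom of the scale. The rule itself set the control floor, which lies above the low-value filter, and the size of the fall, so no count over the members supports the fall.

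**Figure D1:**
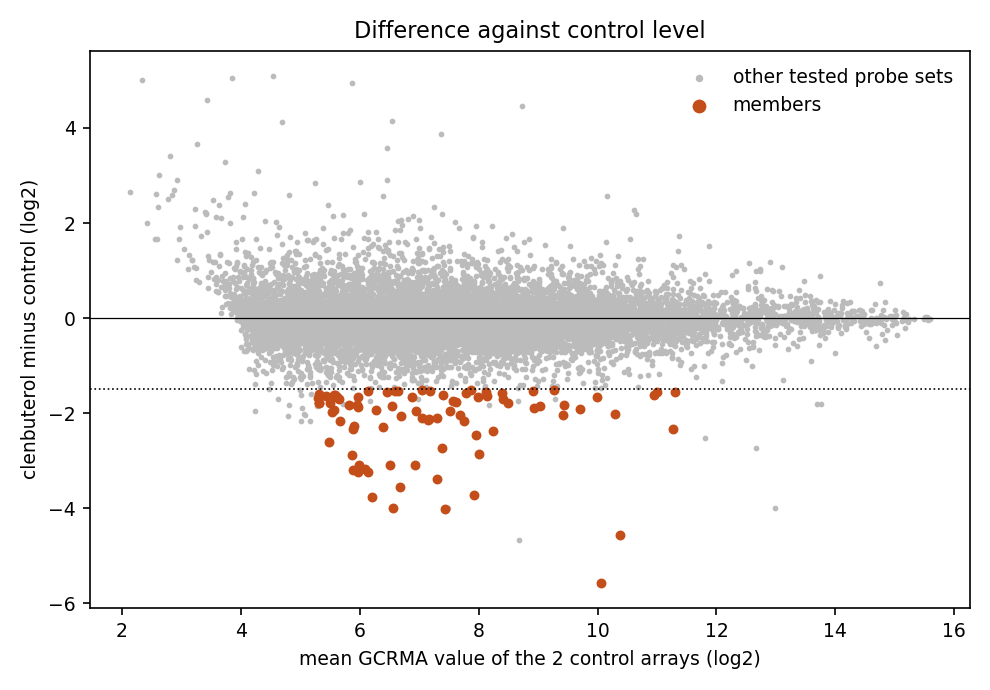
Difference between clenbuterol and control (vertical axis, log2) against the mean of the 2 control arrays (horizontal axis, GCRMA log2), 1 point per tested probe set. The 83 members (orange) lie below the dotted line at -1.5 and the other tested probe sets (grey) centre on 0, at a median over all tested probe sets of -0.03.

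Limma, fitted over all 11931 tested probe sets, called 81 of the 83 members lower at a Benjamini-Hochberg adjusted p under 0.05. Of all tested probe sets 12.4% were called lower and 11.4% higher, and nothing is read from the members' count, since the rule used that contrast. The 2 without a call, Ssc.25070.1.A1_at and Ssc.13452.1.A1_at, were, with C1orf29, the 3 members whose clenbuterol arrays lay farthest apart. Both clenbuterol arrays lay below both control arrays in all 83 members, as they did in 37.3% of all tested probe sets. In the authors' deposited table all 83 carry the flag for selection by both of its tools, together with a fall. That holds for 2.31% of the whole table. The same fall with a gene symbol was found in 11 probe sets, 0.654% of the symbol-bearing ones past the control floor, against 0.997% of those without a symbol before classes were left out. In the opposite direction 84 symbol-less probe sets were higher with clenbuterol by at least 1.5, counted with both clenbuterol values past 5. No class of description was left out of that count, so it stands against the 86 falls before classes were left out.

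The array's description named a protein for 21 members and none for 62, of which 1 is a hypothetical protein. Among the 8629 symbol-less probe sets past the control floor 49.9% had no named protein, against 74.7% of the members. Members stood for smaller sequence clusters, with a median of 3 expressed sequence tags, against 6 in the symbol-less set past the floor. A single tag was the only source of 21 members (25.3%), against 888 (10.3%) of that set. The orientation letter A in the probe set name was carried by 55 members (66.3%), against 45.4%. The plain suffix, used for probes unique to 1 transcript in the design, was carried by 98.8% and 94.2%. A sub-cluster number above 1 was held by 10 of the 83 members and by 1043 of the 8629. These shares are descriptions, and the members are part of the larger set.

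**Figure D2:**
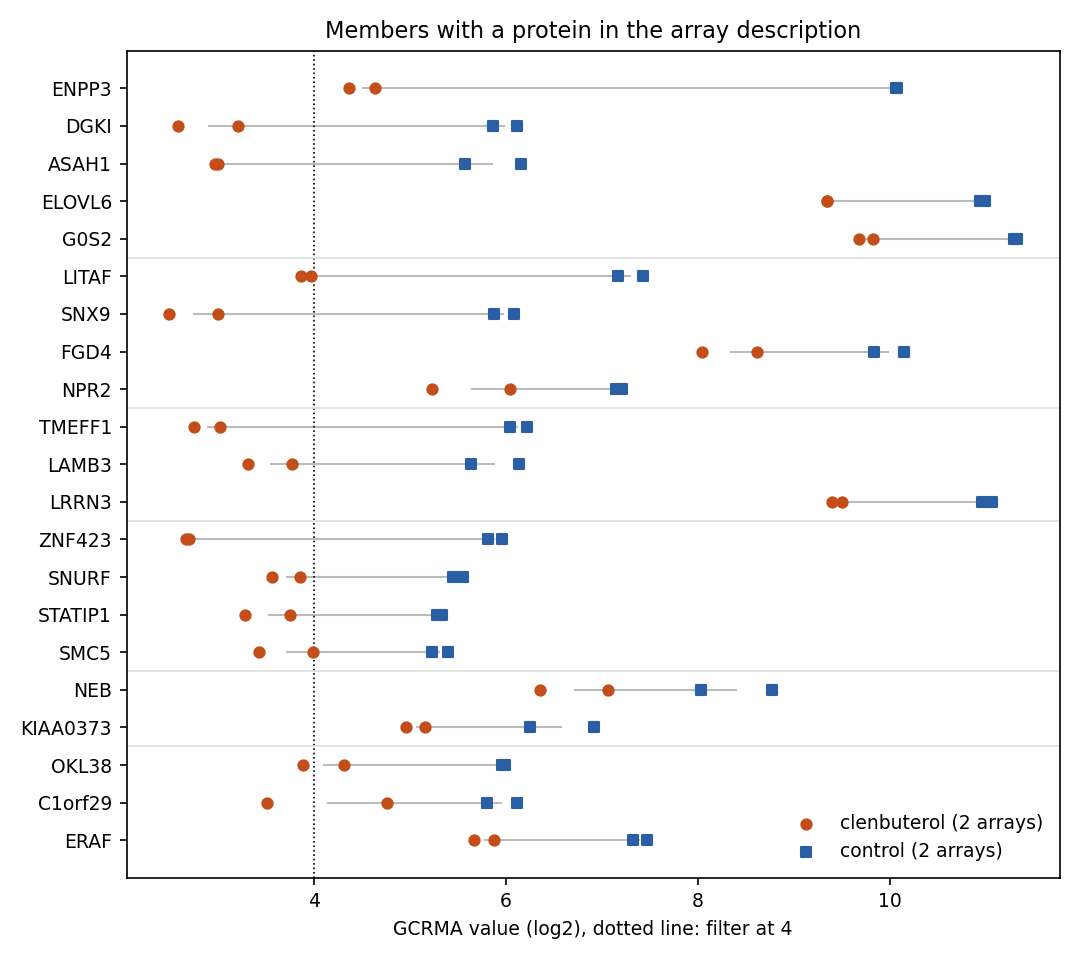
GCRMA values (horizontal axis, log2) of the 21 members with a protein in the array description, with 2 clenbuterol arrays (orange circles) and 2 control arrays (blue squares) in each row, grouped by role. In each row both circles lie left of both squares, and ENPP3 shows the widest gap, 5.56.

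Enzymes of lipid and nucleotide metabolism were led by ENPP3, an ectoenzyme that splits nucleotides and nucleotide sugars outside the cell. ENPP3 had GCRMA values of 4.37 and 4.64 (log2) in clenbuterol livers, against 10.07 and 10.06 in control livers, a 47.1-fold lower mean. Its deposited intensities were 136 in the male and 162 in the female on clenbuterol, against 2007 and 1835 in the control male and female. The bright control signal and a faint one in both treated pigs held in either sex, with a 14.7-fold fall between males and an 11.3-fold fall between females. The authors' deposited table gives it a signed fold of -47.1, which restates the same GCRMA means and adds no evidence. The 4 other tested probe sets described as ectonucleotide pyrophosphatases, a list put together after values were seen, differed by 0.27 to 0.62, and 0 of them were called.

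ELOVL6, the elongase that takes palmitate to stearate in fatty acid synthesis, was among the brightest named members. It had 9.35 and 9.34 (log2) in clenbuterol livers, against 10.98 and 10.93 in control livers, 3.06-fold lower. The arrays of a group were nearly equal and the groups were far apart. Intensities were 1979 and 1936 in the clenbuterol male and female, against 4197 and 4211 in the control male and female. The later annotation puts 2 more members in the same transcript cluster, Ssc.9392.2.S1_at at -2.17 and Ssc.9392.3.A1_at at -2.10. A further probe set of the cluster, Ssc.9392.1.S1_at, differed by -2.03 and missed membership since 1 of its control values was 4.97. All 4 probe sets of the cluster were lower with clenbuterol in both sexes. All except Ssc.9392.1.S1_at are members that the rule chose for a fall, so their shared direction is no support for it. Some other probe sets of fatty acid synthesis and elongation, a list put together after values were seen, stood on the other side of 0. Further enzymes of the route were not looked at here. SCD, the stearoyl-CoA desaturase, had 12.27 and 12.15 in clenbuterol livers, against 10.59 and 10.52 in control livers (limma, difference 1.66, adjusted p = 0.00385). Both tested probe sets described as fatty acid synthase were called higher, at 1.51 and 1.35. The probe set described as an ELOVL1-like elongase was also called higher, at 0.79 (limma, adjusted p = 0.0154).

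G0S2, an inhibitor of adipose triglyceride lipase that restrains the breakdown of stored fat, was the brightest named member by its control level. Its values were 9.82 and 9.67 (log2) in clenbuterol livers, against 11.32 and 11.29 in control livers, 2.95-fold lower. On the intensity scale the fall was smaller, 1.76-fold between males and 1.84-fold between females. A second probe set of G0S2 that is no member was also lower, by -0.998 (SE 0.18; limma, adjusted p = 0.0268).

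DGKI, a kinase that turns diacylglycerol into phosphatidic acid, had 2.59 and 3.21 (log2) in clenbuterol livers, against 5.87 and 6.12 in control livers. Its intensities were 7.3 and 5.3 in the clenbuterol male and female, against 183 and 224 in the control male and female. The treated values were at the bottom of both scales, so the 25.1-fold and 42.3-fold falls of the pairs rest on very low signals. ASAH1, the lysosomal acid ceramidase, had 2.97 and 3.01 in clenbuterol livers, against 6.16 and 5.57 in control livers. The much brighter other ASAH1 probe set had 8.86 and 8.84 in clenbuterol livers, against 8.68 and 8.54 in control livers. That difference of 0.24 (SE 0.09) was not called (limma, adjusted p = 0.131). The later title calls the member an amidohydrolase-like protein, so its identity as ASAH1 is uncertain.

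Signalling and trafficking proteins made up 4 named members. LITAF, a membrane protein of late endosomes and lysosomes, had 3.87 and 3.98 (log2) in clenbuterol livers, against 7.17 and 7.42 in control livers, 10.4-fold lower. SNX9, a sorting nexin that bends membranes during endocytosis, had 3.0 and 2.49 in clenbuterol livers, against 5.87 and 6.08 in control livers, 9.39-fold lower. Both had treated values below 4. On the intensity scale LITAF was only 3.97-fold lower between males and 2.64-fold between females, and SNX9 6.64-fold and 6.29-fold. A brighter probe set described by the same protein was lower in each case but by less. It differed by -0.65 for LITAF (SE 0.15; limma, adjusted p = 0.0439) and by -0.68 for SNX9 (SE 0.08; limma, adjusted p = 0.0121). Among 13 other tested sorting nexin probe sets, a list chosen after values were seen, 2 were called lower and 2 higher. The brighter SNX9 probe set is among those called lower.

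FGD4, an exchange factor that activates the small GTPase CDC42, had 8.05 and 8.62 (log2) in clenbuterol livers, against 9.83 and 10.15 in control livers. NPR2, the guanylate cyclase receptor for C-type natriuretic peptide, had 6.05 and 5.23 in clenbuterol livers, against 7.14 and 7.21 in control livers. FGD4 was bright on all 4 arrays, but for FGD4 and NPR2 alike the clenbuterol arrays differed by more than the margin over the threshold. On the intensity scale FGD4 was 2.74-fold lower between males and 2.41-fold between females. NPR2 was 1.48-fold lower between males, the smallest such fall of a named member, and 1.76-fold between females. The later title of the NPR2 probe set names another cyclase. The receptor for atrial natriuretic peptide, NPR1, differed by -0.71 and was called lower (limma, adjusted p = 0.0107), and it was lower on unscaled intensities in both sexes. Scaling to the hybridisation spikes, which adds the same amount to every probe set, put it at 0.12.

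At the cell surface and in the matrix, TMEFF1, a transmembrane protein with EGF-like and follistatin-like domains, had 3.02 and 2.76 (log2) in clenbuterol livers, against 6.22 and 6.04 in control livers. Its intensities were 11.8 and 3.5 in the clenbuterol male and female, against 187 and 160 in the control male and female. Both treated signals were faint, and the fall was 15.9-fold between males and 46.2-fold between females. The later title names the related domains 2 precursor. LAMB3, a beta chain of the laminin found in epithelial basement membranes, had 3.32 and 3.77 in clenbuterol livers, against 5.64 and 6.13 in control livers. The 3 other tested laminin probe sets, chosen after values were seen, lay between -0.50 and 0.02, and 0 were called. LRRN3, a leucine-rich repeat membrane protein best known from neurons, was bright, with 9.50 and 9.40 in clenbuterol livers, against 11.06 and 10.96 in control livers. Its fall was even between sexes, 2.65-fold between males and 2.61-fold between females.

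Among nuclear proteins, ZNF423, a zinc finger transcription factor known in mice for its role in preadipocyte commitment, had 2.71 and 2.67 (log2) in clenbuterol livers, against 5.96 and 5.82 in control livers, 9.20-fold lower. Its treated values were near the bottom of that scale, and its intensities were 3.63-fold lower between males and 3.40-fold between females. SNURF, encoded upstream of SNRPN in the imprinted Prader-Willi region in humans, had 3.86 and 3.56 in clenbuterol livers, against 5.55 and 5.44 in control livers. STATIP1, a subunit of the Elongator complex, had 3.76 and 3.28 in clenbuterol livers, against 5.28 and 5.33 in control livers. All of these had control levels below 6, near the floor of 5, and treated levels below 4. The other SNURF probe set differed by -0.50 (SE 0.19, limma adjusted p = 0.134). For STATIP1, 3 other probe sets of the same cluster or protein differed by 0.02, -0.11 and -0.25, with 0 called. The one at -0.11 has no protein in its description. SMC5, a subunit of the complex that handles recombination intermediates in DNA repair, had 3.99 and 3.43 in clenbuterol livers, against 5.39 and 5.23 in control livers. The intensities of SNURF and SMC5 differed less, by 1.67-fold to 2.15-fold in the pairs. Another probe set described as SMC5 differed by 0.31, but it lay below the low-value filter and was not tested.

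Proteins of the cytoskeleton and centrosome were NEB and KIAA0373. NEB, the giant actin ruler of skeletal muscle thin filaments, had 7.06 and 6.36 (log2) in clenbuterol livers, against 8.77 and 8.03 in control livers. The later title names the nebulin-related anchoring protein instead. The muscle marker TPM2 was not called. KIAA0373, the ciliary and centrosomal protein now called CEP290, had 5.16 and 4.96 in clenbuterol livers, against 6.92 and 6.25 in control livers. NEB had the widest spread of the named members in the control group (SD 0.52, n = 2). With 1 array or another left out its difference ran from -1.32 to -2.06. The brighter KIAA0373 probe set of the same cluster differed by -0.35 (SE 0.10) and was not called (limma, adjusted p = 0.0737). A fainter probe set of that cluster differed by -1.42, but it lay below the low-value filter and was not tested.

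OKL38, an oxidative stress-induced growth inhibitor, had 4.32 and 3.89 (log2) in clenbuterol livers, against 5.95 and 5.99 in control livers. Its later title names another protein, so that identity is uncertain. C1orf29, the interferon-induced protein now called IFI44L, had 3.52 and 4.76 in clenbuterol livers, against 6.11 and 5.81 in control livers. ERAF, the chaperone of free alpha hemoglobin in red cell precursors, had 5.67 and 5.87 in clenbuterol livers, against 7.32 and 7.47 in control livers. The treated arrays of C1orf29 were far apart (SD 0.88, n = 2). Beside ERAF, 5 probe sets described as hemoglobin were tested, a list chosen after values were seen. Of these, 3 were called lower and 0 higher, with a median of -0.34 and a range of -1.82 to 0.86. Except for the alpha 1 chain, which has no symbol, their deposited symbols name other genes, so their identity is uncertain. The one at 0.86 had 6.23 and 11.61 in clenbuterol livers, against 4.82 and 11.31 in control livers, so its arrays were far apart within each group. With the amount that scaling to the hybridisation spikes adds to every probe set, the 3 called lower stood at -0.91 for the alpha 1 chain, 0.14 for the beta chain and 0.0064 for the adult alpha chain. Their part in the ERAF value was not tested.

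C1orf29 was the only member with another tested probe set of its cluster or protein called higher. The probe set Ssc.10593.1.S1_at, described by the same protein, had 7.96 and 8.09 (log2) in clenbuterol livers, against 6.85 and 6.48 in control livers. It was called higher by 1.36 (SE 0.15; limma, adjusted p = 0.0107). Ssc.10588.1.A1_at, also described by it, was called higher by 0.96 (SE 0.14; limma, adjusted p = 0.0167). The member, built from a single tag, thus went one way and the brighter probe sets of the named protein the other.

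Over all members, 24 had another probe set in the same cluster or described by the same protein. Of 23 such probe sets that are no members, 17 were tested: 5 were called lower, 2 higher and 10 were not called. Their differences ran from -2.03 to 1.36 with a median of -0.25, and 9 were brighter in control livers than their member. A probe set that fell by 1.5 with both controls past 5 would itself be a member, so this list is cut off on that side. In 7 members the other probe set was a member too. Besides the ELOVL6 cluster these were Ssc.17133.1.A1_at at -3.16 with Ssc.8555.1.A1_at at -2.86, and Ssc.22211.1.A1_at at -2.02 with Ssc.22211.2.S1_at at -1.83.

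**Figure D3:**
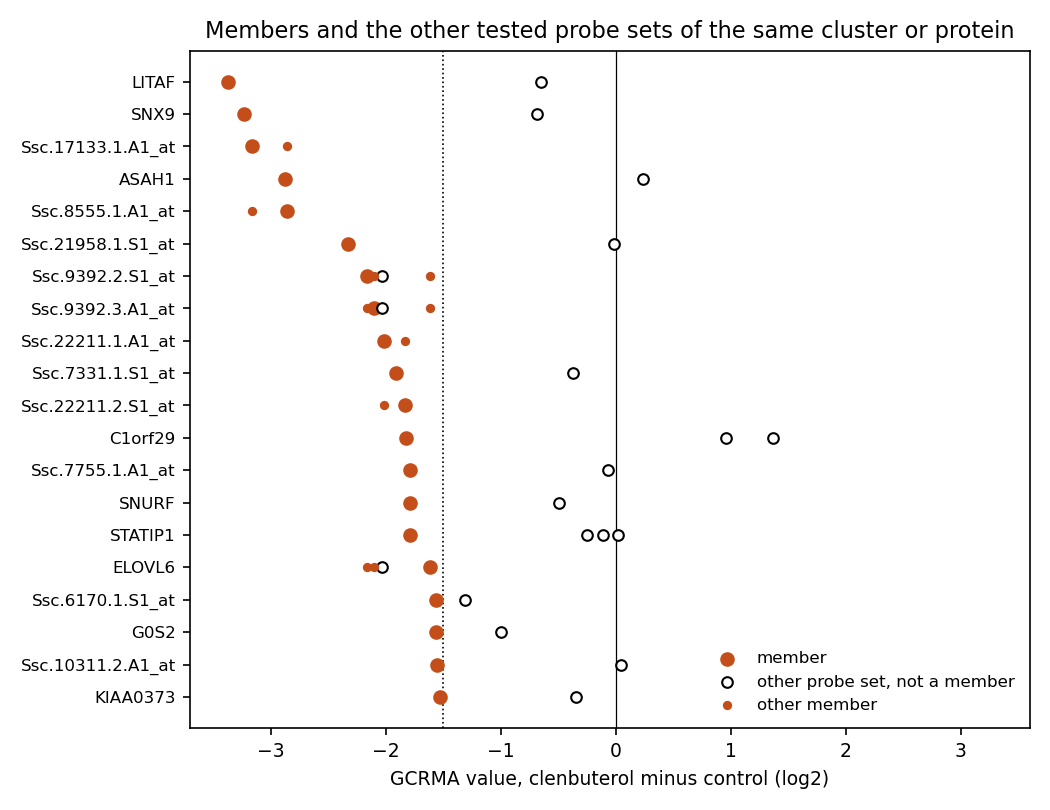
Difference between clenbuterol and control (horizontal axis, GCRMA log2) for members with another tested probe set of the same cluster or protein: the member (large orange), other members (small orange) and probe sets that are no members (open). Open circles lie between -2.03 and 1.36 with a median of -0.25, and those of C1orf29 lie right of 0.

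Members without a named protein spanned a similar range, from -4.56 to -1.52. Ssc.29449.1.A1_at had 6.23 and 5.41 (log2) in clenbuterol livers, against 10.37 and 10.39 in control livers, a fall next in size to that of ENPP3 among the members. Ssc.23408.1.A1_s_at had 3.47 and 3.39 in clenbuterol livers, against 7.41 and 7.47 in control livers. In both, the groups lay several units apart and the control arrays were close together. The brightest of the unnamed members in control livers, Ssc.21958.1.S1_at, had 8.72 and 9.15 in clenbuterol livers, against 11.24 and 11.28 in control livers. The other probe set of its cluster, with a control mean of 9.62, differed by -0.02 (SE 0.15; limma, adjusted p = 0.940). The 62 unnamed members had a median difference of -1.93, against -1.79 for the 21 named ones. The later title of 1 of the 62, Ssc.10311.2.A1_at, named a MAP kinase kinase kinase. Of the 20 largest falls among all probe sets with both controls past 5, 17 were members. Past that floor 8629 probe sets had no symbol and 1681 had a symbol, so most were symbol-less. Since the rule chose members for their fall, nothing is read from this count.

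The deposited intensities carry the replicate number and so the sex, and they come from the same arrays, so they describe the members again without adding samples. All 83 members were lower in either sex, with both clenbuterol arrays below both control arrays, as held for 33.3% of all tested probe sets. Between males the median difference was -1.45 (log2, range -4.65 to -0.57). Between females it was -1.39 (range -5.53 to -0.51). In 44 members the male pair differed more and in 39 the female pair, with a median gap of 0.19 between pairs. A gap over 1 occurred in 3 members: TMEFF1, ASAH1 and Ssc.1375.1.A1_at, the last at -2.69 between males and -0.96 between females. With 1 pig per sex and treatment, these gaps could not be tested. In both pairs at once, 57 of the 83 were at least 2-fold lower, as were 1.31% of all tested probe sets. Intensities gave a smaller difference than GCRMA in 77 members and a larger one in 6, among them TMEFF1, DGKI, OKL38 and C1orf29.

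**Figure D4:**
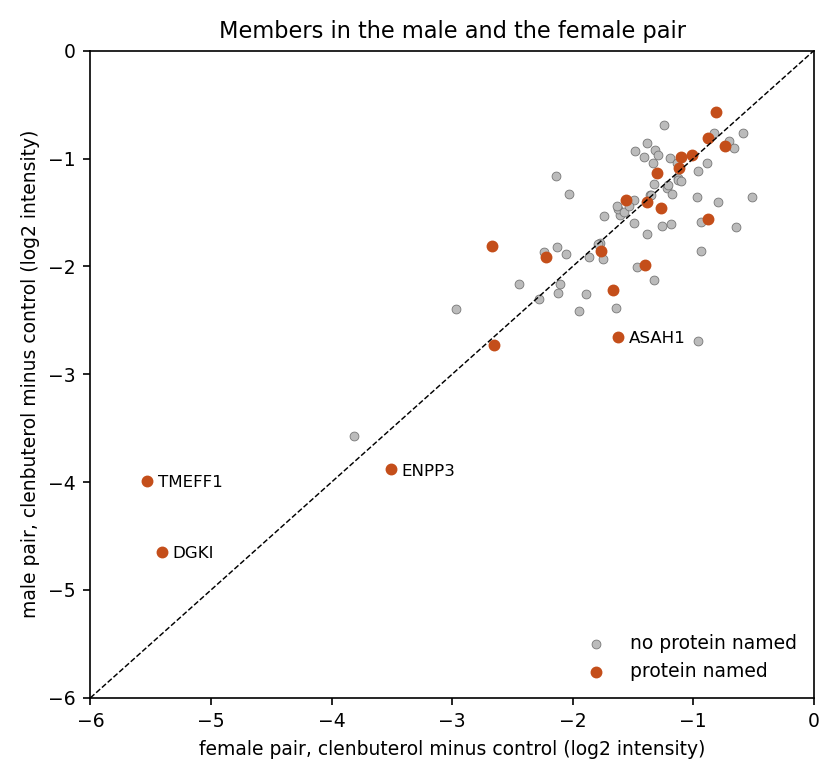
Clenbuterol minus control (log2 intensity) in the male pair (vertical axis) against the female pair (horizontal axis) for the 83 members, with named proteins in orange and a dashed line of equal differences. All points lie below 0 on both axes, and DGKI and TMEFF1 lie farthest out in the female pair, down to -5.53.

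The comparison of males with females, over both treatments, is one that the rule did not use. Limma with treatment as a covariate called 0 of the 83 members, where 1 of 11931 probe sets (0.00838%) was called. The smallest adjusted p among the members was 0.655. Male minus female differences of the members had a median of -0.01 (log2) and ran from -0.72 to 0.999, the upper end being TMEFF1. At an unadjusted p under 0.05 there were 15 members (18.1%), against 895 of all tested probe sets (7.50%). With 2 pigs per sex the missing calls do not show that the sexes were alike.

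Protein families defined by keywords in the array description placed the named members among their relatives. Of 233 kinase probe sets, the family of DGKI, 11 were called lower and 22 higher. For receptors, which include NPR2, 19 of 243 were lower and 36 higher. Among 91 phosphatases, with ENPP3, 6 were lower and 18 higher. Membrane trafficking, with SNX9, had 11 lower and 9 higher of 70, and zinc finger or transcription factors, with ZNF423, had 17 lower and 14 higher of 180. Of all 4960 tested symbol-less probe sets with a protein in the description, 406 (8.19%) were lower and 663 (13.4%) higher. The medians of these families lay between -0.02 and 0.14, against -0.03 over all tested probe sets.

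At the threshold, the 5 members nearest to it differed by -1.52 to -1.54, and included KIAA0373 and NPR2. The 5 nearest symbol-less probe sets that missed it differed by -1.495 to -1.46, and 1 of them was described as sialyltransferase 8A, an enzyme of ganglioside synthesis.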

How the data were processed

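Biotin-labelled cRNA from 6 ug of liver RNA per pig was hybridised to 1 Affymetrix porcine array each, per the labels' protocols. The authors deposited log2 values made with GCRMA, per the submitters' processing notes. The sources used here give neither its version and settings nor how the intensities below were made. The GCRMA values cover 15383 probe sets, and their columns show the group but neither replicate nor sex. The deposited series table holds linear intensity values for 24123 probe sets with replicate numbers, of which log2 was taken. Per the file headers, the authors' deposited table also gives a p-value from limma, a q-value from SAM, a selection flag and a signed fold, read here as a score.

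Groups were compared with limma 3.58.1 (lmFit, eBayes; R 4.3.3) and Benjamini-Hochberg adjustment at 0.05, on 11931 probe sets at 4 (log2) or more on at least 2 of 4 arrays. The GCRMA values served for treatment and the log2 intensities for sex, with treatment as covariate. Both fits were also run on simulated data with independent normal noise, its variances drawn from limma's fitted prior. Such data meet the assumptions of the fit, so that run cannot check them. Tables were handled in Python 3.11.15 with pandas 2.3.3. Differences are clenbuterol minus control. Members are named by the protein in the array's own description; named in the text are the 21 members with such a protein and the 2 unnamed with the largest fall, while the 5 on each side of the threshold are given by their range. Some further probe sets were named after their values were seen. Members, lists and the rule were chosen with earlier results of these data known. No sequences were used here.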

Additional observations from a re-analysis of the deposited data

How the results depend on the processing

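With 2 arrays per group the counts moved with the setting. The rule gave 83 members, 265 with a fall of at least 1.0 and 35 with at least 2.0. Control floors of 4 and 6 gave 96 and 57. On the series intensities the rule gave 121, of which 38 were members, and leaving out 1 array in turn gave 82 to 99, with 70 to 76 members kept. The members' median difference of -1.88 was -1.93 to -1.99 without 1 array or another and -1.43 on the series intensities. With the replicate number as a block it was also -1.43, since the mean of the pair differences is the same value. Scaled to 27 hybridisation spike probe sets it was -1.06 and the median of all tested probe sets was 0.35; this scaling adds the same amount to every probe set, so the gap between them is fixed. The spike set was settled after values were seen; the 9 older, 18 newer and 6 cre probe sets, added after seeing the data, gave -1.02, -1.08 and -1.16. Probe sets called lower numbered 1478, against 270 (without the first clenbuterol column) to 610 (without the second control column) when 1 array was left out, 636 on intensities, 515 with the replicate block and 254 after spike scaling. Those called higher numbered 1365, against 309 to 603, 690, 539 and 2959. The cause of these shifts in counts was not tested. The numbers were not taken to pair the pigs, since with 2 pairs the pairing cannot be checked. For males against females 1 probe set was called, and 0 without the filter; leaving out arrays was not run there, as no residual degrees of freedom remain. For 23 members followed singly, 57 of 184 alternative differences moved by more than the spread between replicates. That share does not measure stability. Leaving out 1 of 2 arrays cannot move a difference by more than that spread, and the replicate block repeats the series intensities. The rule chose these members for a fall, so their sign is no check.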
